A study of Mus musculus with 12 samples.

Results

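Small nucleolar RNAs (snoRNAs) were followed in the liver and brain of mice with and without METTL5, the methyltransferase that modifies an adenosine of 18S rRNA. They were taken as every gene whose symbol starts with Snord or Snora and which held at least 10 counts in at least 3 of the 12 libraries. Of 141 such rows among the 55487 genes of the table, 45 met this rule, namely 31 C/D box snoRNAs (Snord, out of 99) and 14 H/ACA box snoRNAs (Snora, out of 42). The KO mice (A, C and F) lacked Mettl5 in the whole body, because a floxed exon 2 had been deleted with a Cre driven by the CMV promoter. The line came from C57bl/6 x 129S6 hybrid ES cells that were crossed back to B6. The WT mice (B, D and E) were labelled wild type, although the text of the study also names heterozygous animals as the controls for its RNA sequencing. Liver and brain were taken from each mouse, which gave 3 libraries for each of WT liver, KO liver, WT brain and KO brain. The labels give no age or sex for a mouse, and the study as a whole used both sexes.

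snoRNAs are short nuclear RNAs that guide the chemical modification of rRNA by base pairing. C/D box snoRNAs direct 2'-O-methylation with fibrillarin, whereas H/ACA box snoRNAs direct the conversion of uridine to pseudouridine with dyskerin. Most mammalian snoRNAs are cut out of the introns of a host gene. A few, such as U3, U8 and U17, act in the cleavage of the rRNA precursor instead of its modification.

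The sequences below are those that the comparison of the tissues turned on. They are the GENCODE transcripts of the genome GRCm38 (mm10), printed 5′ to 3′ as DNA. Capitals mark a C box (TGATGA within the first 20 bases) and a D box (CTGA within the last 15 bases) in a Snord, and the ACA within the last 8 bases in a Snora.

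Snord104 (chr11:106500993-106501062, plus strand): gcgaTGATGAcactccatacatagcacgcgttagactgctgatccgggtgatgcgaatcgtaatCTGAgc
Snord118 (chr11:69073427-69073561, plus strand): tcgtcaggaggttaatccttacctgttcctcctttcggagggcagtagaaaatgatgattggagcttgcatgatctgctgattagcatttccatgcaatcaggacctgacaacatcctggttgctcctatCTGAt
Snord32a (chr7:45127382-45127464, minus strand): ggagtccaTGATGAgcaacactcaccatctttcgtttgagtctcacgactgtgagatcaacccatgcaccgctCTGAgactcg
Snord34 (chr7:45126601-45126670, minus strand): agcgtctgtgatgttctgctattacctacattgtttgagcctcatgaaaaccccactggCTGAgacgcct
Snord35a (chr7:45126346-45126435, minus strand): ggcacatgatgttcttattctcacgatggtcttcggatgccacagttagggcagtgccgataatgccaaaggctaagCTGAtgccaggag
Snord116l12 (chr7:59904755-59904848, minus strand): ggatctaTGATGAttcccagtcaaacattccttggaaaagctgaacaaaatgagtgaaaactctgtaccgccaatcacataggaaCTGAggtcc
Snord116l14 (chr7:59871864-59871957, minus strand): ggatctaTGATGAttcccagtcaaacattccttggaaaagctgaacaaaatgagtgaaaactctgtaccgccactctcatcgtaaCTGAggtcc
Snora35 (chrX:146994381-146994508, plus strand): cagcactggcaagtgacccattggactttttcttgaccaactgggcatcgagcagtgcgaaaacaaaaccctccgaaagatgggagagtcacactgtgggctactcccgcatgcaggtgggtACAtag
Snora21 (chr11:97781639-97781775, minus strand): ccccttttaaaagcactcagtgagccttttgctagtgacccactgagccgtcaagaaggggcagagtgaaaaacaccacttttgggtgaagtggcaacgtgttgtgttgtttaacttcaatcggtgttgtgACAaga
Snora30 (chr7:127527874-127528003, plus strand): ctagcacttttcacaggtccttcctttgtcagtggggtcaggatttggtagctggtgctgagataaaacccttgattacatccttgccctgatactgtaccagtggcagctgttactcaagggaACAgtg

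The motifs were searched in all 45 sequences. A C box in this window was found in 21 of 31 C/D box members (67.7%) and a D box in 29 of 31 (93.5%), and 14 of 14 H/ACA box members held ACA near the 3′ end. Snord70 and Snord90 held neither box in these windows. Among 10372 other GENCODE transcripts of 60 to 300 bases, read on the transcribed strand only, 3.14% held the C box, 9.90% the D box and 15.9% the ACA. The C/D box members measured 64 to 238 bases (median 84) and the H/ACA box members 128 to 205 bases (median 132).

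Which snoRNAs could be counted was tied to the annotation. None of the 45 members shared an exon position with another gene on the same strand, whereas 67 of the 96 rows below the rule did, and 59 of those 67 held no count in any library. Among the 74 rows without such an overlap, 45 (60.8%) were members. Snord33, another snoRNA of the Rpl13a gene, Snord22 and Snord14a, Snord14c, Snord14d and Snord14e held no count. Snora73a, a copy of the U17 snoRNA, held 4 counts over all libraries, and its other copy Snora73b was a member. Copies with equal sequence were not counted above the rule either. Of 17 copies of Snord116, 14 had 1 identical sequence and none of these was a member. The members Snord116l12 and Snord116l14 each had a sequence found in no other copy, and Snord116l14 differed from Snord116l12 at A74C, A77T, A81C and G83T (Snord116l12 base first, positions from 1 at the 5′ end). Snord116l9 also had a sequence of its own, held at most 8 counts in a library and was no member. Of the 29 rows below the rule without an overlap, 15 shared their sequence with no other row, and Snord42a came nearest to the rule, with 10 or more counts in 2 libraries. For the overlapped rows and the identical copies a low count cannot be told apart from reads left uncounted.

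The libraries held 14403309 to 21623180 counts, of which the 45 members made up 4407 to 10690 (0.0245 to 0.0724%). Mettl5, the targeted gene, had 19.0, 10.1 and 10.4 CPM (counts scaled to library size, with TMM factors over all 12 libraries) in WT liver of mice B, D and E, and 4.94, 4.64 and 5.23 CPM in KO liver of mice A, C and F. In brain it had 7.13, 4.66 and 3.96 CPM in WT and 2.61, 3.12 and 3.0 CPM in KO, so the KO libraries lay below the WT libraries in both tissues. The difference did not pass the adjusted threshold (log2 fold change -1.44 with SE 0.27 in liver and -0.84 with SE 0.27 in brain). Counts cover all exons and hence do not isolate the deleted one. The tissue labels were borne out by 5 liver marker genes, whose summed level was 69941 to 92193 CPM in liver and 9.14 to 24.4 CPM in brain, and by 5 brain marker genes, at 2418 to 2900 CPM in brain and 12.1 to 23.9 CPM in liver. In brain, the summed levels of 3 lists of regional marker genes did not overlap between the genotypes. That of 10 olfactory bulb genes, of which 7 were called higher in KO beside 0.0640% of all genes called in either direction, was 18.7 to 28.7 CPM in WT and 71.2 to 98.2 CPM in KO, that of 10 cerebellum genes, of which 0 were called and 10 had a fitted value below 0, 754 to 1311 CPM in WT and 96.6 to 506 CPM in KO, and that of 8 choroid plexus genes, of which 0 were called and 8 had a fitted value below 0, 186 to 316 CPM in WT and 96.9 to 151 CPM in KO. The share of counts on the mitochondrial rRNA genes also separated the genotypes, in opposite directions, with 7.63 to 17.7% in WT brain and 21.4 to 31.6% in KO brain, and 10.7 to 16.9% in WT liver and 7.36 to 8.66% in KO liver.

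Levels of different snoRNAs were compared as CPM per kilobase, over both genotypes. In liver, Snord17 was the most abundant C/D box member, with 433 ± 117 CPM per kb (SD, n = 6), closely followed by Snord104 with 426 ± 66.8 CPM per kb, a difference well inside their spread. Both guide methylation of 28S rRNA, as do Snord15a (215 ± 65.7), Snord87 (135 ± 47.7) and Snord55 (112 ± 27.0 CPM per kb), which came next. Among H/ACA box members Snora21 (339 ± 106 CPM per kb) and Snora23 (274 ± 71.8) led, overlapping each other, followed by Snora73b (U17b), which acts in 18S rRNA processing, with 129 ± 29.0 CPM per kb. Snora62 (49.3 ± 13.1 CPM per kb) and Snora30 (33.6 ± 9.27) came next. In brain the first 3 H/ACA box members came in the same order, with Snora21 at 517 ± 201 and Snora23 at 233 ± 89.2 CPM per kb. Snord17 led the C/D box class there at 505 ± 140 CPM per kb, Snord104 was no longer among the first 5, and Snord116l12 came after Snord15a and Snord87 with 119 ± 68.0 CPM per kb.

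The summed level of the C/D box members was 223, 279 and 220 CPM in WT liver (mice B, D and E) and 212, 262 and 338 CPM in KO liver (mice A, C and F). In brain it was 301, 201 and 129 CPM in WT and 411, 157 and 280 CPM in KO. The genotypes overlapped in both tissues, and the brain libraries spread more widely than the liver libraries. The H/ACA box members summed to 124, 173 and 119 CPM in WT liver, 128, 170 and 220 CPM in KO liver, 235, 166 and 89.6 CPM in WT brain and 271, 108 and 179 CPM in KO brain. Libraries high in one class were high in the other. The ratio of the C/D to the H/ACA sum was 1.61 to 1.85 in WT liver, 1.53 to 1.65 in KO liver, 1.21 to 1.44 in WT brain and 1.45 to 1.57 in KO brain. WT and KO brain thus did not overlap in this ratio, by a narrow gap between WT mouse E (1.439) and KO mouse C (1.454). With 3 against 3 mice an exact permutation test cannot go below p = 0.1.

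**Figure D1:**
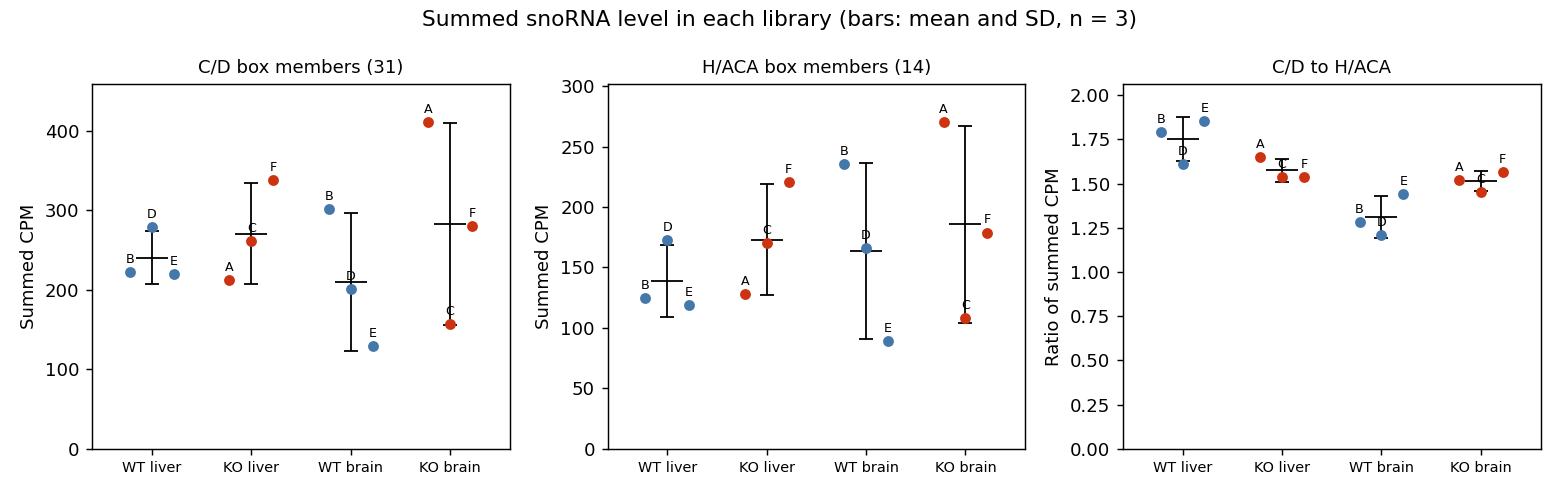
Summed CPM of the 31 C/D box and 14 H/ACA box members, and the ratio of the sums, in each library (points, lettered by mouse; blue WT, red KO), with the mean and SD of 3 mice. WT and KO overlap in the sums in both tissues, and the ratio lies between 1.21 and 1.85 in the 12 libraries.

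To see which snoRNAs differed between the tissues, liver was compared with brain over all 12 libraries with edgeR's quasi-likelihood test, Benjamini-Hochberg adjusted over 18944 genes and called at an adjusted p under 0.1. At this threshold 12 of the 45 members were higher in liver and 8 were higher in brain, against 37.9% of all genes higher in liver and 47.0% higher in brain. The C/D box class held 8 of the 12 and 4 of the 8. Among the 8 were Snord116l12, Snord116l14 and Snora35, which met the rule for members through the brain libraries alone, so that the choice of members fixed their direction. Of the 42 members counted in both tissues, 12 were called higher in liver and 5 higher in brain. Of these, Snord90 met the rule only through brain (6 to 16 counts in a liver library). Snord37 met it only through liver (1 to 18 counts in a brain library), so the choice of members favoured both calls. The members' median log2 fold change (liver over brain) was 0.12 for the C/D box class and 0.17 for the H/ACA box class, beside -0.22 for all genes tested. These 2 class medians include Snord116l12, Snord116l14 and Snora35. These levels are of whole tissue, so a lower value can come from fewer cells of a type or from less RNA in each cell, and these cannot be told apart. The scale between the tissues also matters. With library totals in place of TMM factors the median of all genes moved from -0.22 to -0.90, and the calls became 5 higher in liver and 19 higher in brain. Under all 11 alternatives tried, 5 members kept the call in liver (Snord104, Snord118, Snord34, Snord66 and Snord37) and 7 in brain (Snord116l12, Snord116l14, Snora35, Snord90, Snora47, Snord8 and Snora30).

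Snord116l12, Snord116l14 and Snora35 were counted in brain only, with 0 counts in each of the 6 liver libraries. Since the brain counts made them members, their folds are given as a description. Snord116 is the imprinted C/D box cluster of the Prader-Willi region, has no known rRNA target and lies in the long transcript Snhg14. Snord116l12 had 12.6, 8.44 and 4.75 CPM in WT brain (mice B, D and E) and 21.9, 5.62 and 14 CPM in KO brain (mice A, C and F), 1294 counts in all. Set against a floor of 3 counts over the 6 liver libraries, it was at least 294-fold higher in brain. Snord116l14, with 162 counts in brain, was at least 36.8-fold higher. Snora35, also without a known rRNA target, lies in an intron of the serotonin receptor gene Htr2c. Its level was 2.17, 1.31 and 0.594 CPM in WT brain and 5.04, 1.19 and 1.97 CPM in KO brain, at least 52.1-fold above the liver floor. The genes holding them were lower in liver too, with log2 fold changes (liver over brain) of -7.84 for Snhg14 (SE 0.16) and -10.69 for Htr2c (SE 0.33).

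Snord104 had the highest fold change toward liver. It had 27.5, 28.2 and 34.8 CPM in WT liver and 22.5, 32.1 and 34.0 CPM in KO liver, against 4.80, 2.63 and 2.22 CPM in WT brain and 16.3, 2.95 and 6.63 CPM in KO brain. Every liver library lay above every brain library, also above the high brain library of KO mouse A (log2 fold change 2.51, SE 0.34, adjusted p = 1.63e-05). Snord118 is the U8 snoRNA, required for the maturation of 5.8S and 28S rRNA. It had 18.3, 17.3 and 11.4 CPM in WT liver and 10.4, 13.6 and 12.7 CPM in KO liver, against 5.66, 2.83 and 1.58 CPM in WT brain and 7.33, 3.18 and 3.26 CPM in KO brain. It too did not overlap between the tissues (log2 fold change 1.83, SE 0.29, adjusted p = 4.69e-05). Snord13 (U13), which acts in the processing and acetylation of 18S rRNA, was higher in liver by a log2 fold change of 1.24 (SE 0.33, adjusted p = 0.00297), although the brain libraries of KO mice A (2.17 CPM) and F (2.07 CPM) lay within the liver range of 1.47 to 2.61 CPM.

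Snord104, Snord118 and Snord13 were among 6 members that lay inside no longer gene on their strand. Of these 6, 5 were called, beside 84.9% of all genes called in either direction, each higher in liver, the other called members being Snora57 (log2 fold change 1.18, SE 0.33) and Snora17 (0.66, SE 0.31). Snora78 (0.62, SE 0.37) did not pass. Snord104 and Snord118 kept the call under all 11 alternatives, Snord13 and Snora57 under 10, all but library totals, and Snora17 under 4. The remaining 39 members lay in introns of 34 genes. For 12 of the 39 both the snoRNA and the gene around it were called, in the same direction for 10 and in opposite directions for 2. Without Snord116l12, Snord116l14 and Snora35, whose direction the rule fixed, it was the same for 7 of 9. The 7 include Snord37 and Snord90, which each met the rule through 1 tissue only. For 14 only the gene was called, for 3 only the snoRNA, and for 10 neither. Snord66 and its gene Eif4g1, a translation initiation factor, were both higher in liver, by log2 fold changes of 1.71 (SE 0.39) and 2.17 (SE 0.15). Snord37 and its gene Eef2, the translocase of elongation, were higher by 1.54 (SE 0.46) and 1.28 (SE 0.13). Snora31 was higher by 0.87 (SE 0.32) and its gene Tpt1 by 1.42 (SE 0.12). Snora69 was higher by 1.20 (SE 0.46) and its gene Rpl39 by 0.57 (SE 0.12), and Snord23 by 0.80 (SE 0.36) and its gene Nop53 by 0.83 (SE 0.09), calls that held under 8 and 7 of the 11 alternatives. Snord90 and its gene Rc3h2 were both higher in brain, with log2 fold changes of -1.68 (SE 0.45) and -1.20 (SE 0.10). Snora47 (-1.12, SE 0.33) and Snord8 (-1.09, SE 0.32) were higher in brain as well, with values of -0.04 (SE 0.20) for Zbed3 and -0.20 (SE 0.09) for Chd8, the genes around them.

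Snora21 and Snora30 were the 2 that went against their genes. Snora21, which lies in the ribosomal protein gene Rpl23, had 32.5 to 70.3 CPM in liver and 35.5 to 103 CPM in brain. The tissues overlapped in level, with a log2 fold change of -0.62 (SE 0.28, adjusted p = 0.0528), while Rpl23 was higher in liver by 1.18 (SE 0.11). The call of Snora21 was lost without mouse A, without mouse B and without the filter on low counts. Snora30 had 2.93 to 5.83 CPM in liver and 4.00 to 13.3 CPM in brain, and its log2 fold change was -0.89 (SE 0.29, adjusted p = 0.0123), while its gene Srcap, a chromatin remodeller, was higher in liver by 0.55 (SE 0.13).

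**Figure D2:**
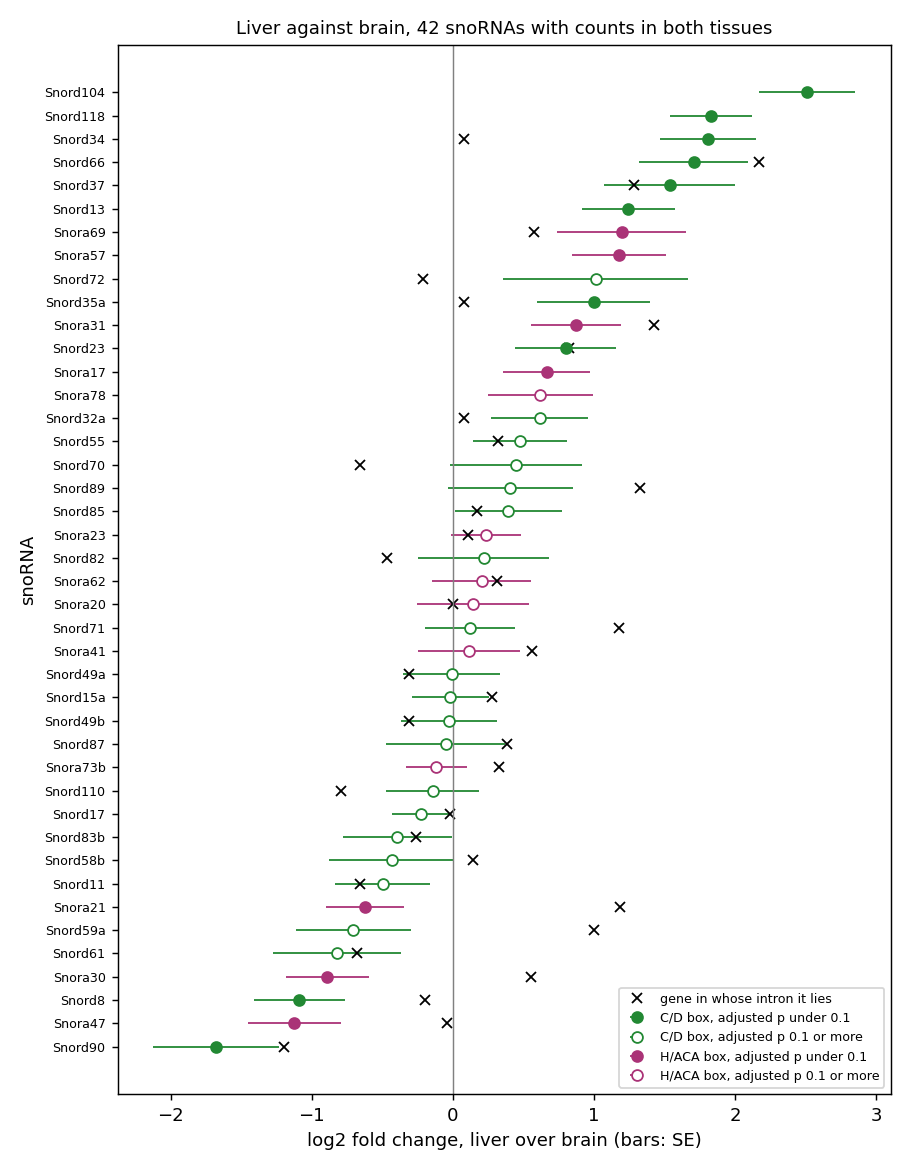
log2 fold change of liver over brain with its SE for the 42 members counted in both tissues (green C/D box, purple H/ACA box; filled where the adjusted p was under 0.1), with that of the gene around each (crosses). Snord104 lies furthest to the right at 2.51 and has no cross, and the crosses of Snora21 (1.18) and Snora30 (0.55) lie on the other side of 0 from their snoRNA.

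Because a ratio of counts within a library needs no scaling, each snoRNA was also divided by the gene around it. This was possible for 35 members, with 0.5 added to each count, and liver and brain were compared with a two-sided exact permutation test of the mean log2 ratio, Benjamini-Hochberg adjusted over the 35. With 6 against 6 libraries the smallest p it allows is 0.00216. It passed for 4 members. Snord34 was higher relative to Rpl13a in liver (difference 1.89 on the log2 scale, adjusted p = 0.0253, exact permutation test), with a median of 1118 counts per 1000 counts of Rpl13a in liver and 297 in brain. Snora21 was lower relative to Rpl23 in liver, with a median of 243 counts per 1000 in liver and 899 in brain (difference -1.73, adjusted p = 0.0253, exact permutation test). Snord59a was lower relative to Atp5b, a subunit of ATP synthase (difference -1.54, adjusted p = 0.0253, exact permutation test), and so was Snora30 relative to Srcap (difference -1.37, adjusted p = 0.0758, exact permutation test). In the first 3 the liver and brain libraries did not overlap. This test treats the 12 libraries as independent, although each mouse gave a liver and a brain. With the libraries paired by mouse, all 4 ratios moved the same way in 6 of 6 mice (exact p = 0.0312, the smallest that 6 pairs allow), and none of the 35 passed after adjustment (smallest adjusted p = 0.243). The C/D box members had a median difference of 0.27 and the H/ACA box members one of -0.33.

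snoRNAs from the same gene were then set against each other. The introns of Rpl13a, a ribosomal protein gene whose C/D box snoRNAs have been studied in metabolic stress, held the 3 members Snord32a, Snord34 and Snord35a. Rpl13a itself differed little between the tissues (log2 fold change 0.08, SE 0.18, adjusted p = 0.701). Snord34, which guides methylation of 28S rRNA, had 6.87, 9.96 and 6.60 CPM in WT liver and 5.79, 10.4 and 7.57 CPM in KO liver, against 2.63, 0.915 and 0.990 CPM in WT brain and 5.61, 1.36 and 3.16 CPM in KO brain. Every liver library lay above every brain library (log2 fold change 1.81, SE 0.34, adjusted p = 0.000190). Snord35a, also a 28S guide, was higher in liver by 1.0 (SE 0.40, adjusted p = 0.0319), a call lost with library totals, without mouse C and without mouse D. Snord32a did not pass (0.62, SE 0.34, adjusted p = 0.111), but was called under 3 of the 11 alternatives, among them mouse as a replicate block.

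In liver the ratio of Snord32a to Snord34 counts lay between 0.538 and 0.914, and in brain between 1.29 and 2.22, with no overlap, so that Snord34 exceeded Snord32a in each liver library and Snord32a exceeded Snord34 in each brain library. The difference passed the exact permutation test (p = 0.00216, adjusted p = 0.00541 over 5 pairs). For Snord34 to Snord35a the liver ratios were 2.50 to 3.57 and the brain ratios 1.52 to 2.18, again without overlap (exact permutation p = 0.00216, adjusted p = 0.00541). The ratio of Snord32a to Snord35a did not pass (exact permutation p = 0.0887, adjusted p = 0.111). Both ratios with Snord34 moved the same way in 6 of 6 mice when liver and brain of a mouse were paired (exact p = 0.0312, adjusted p = 0.0521 over the 5 pairs of snoRNAs). Of the other pairs within 1 gene, Snord11 to Snord70 in Nop58 was lower in liver, with medians of 1.11 in liver and 2.85 in brain (exact permutation adjusted p = 0.0469). Snord49a to Snord49b in 2410006H16Rik had medians of 1.54 and 1.53 (exact permutation adjusted p = 0.874). The pairs were examined after the values had been seen.

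**Figure D3:**
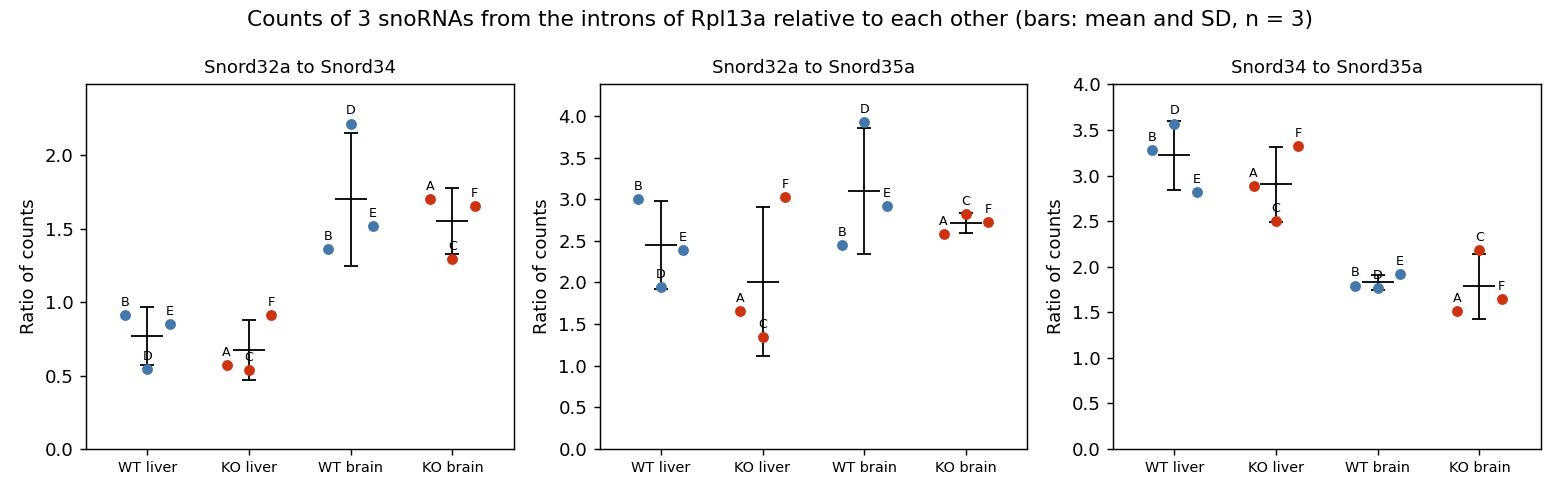
Ratio of counts between the 3 members from the introns of Rpl13a in each library (points, lettered by mouse; blue WT, red KO), with the mean and SD of 3 mice. The ratio of Snord32a to Snord34 is at most 0.914 in liver and at least 1.29 in brain, and that of Snord34 to Snord35a is at least 2.50 in liver and at most 2.18 in brain, in both genotypes.

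KO was compared with WT to see whether loss of METTL5 went with a change in snoRNA level. In liver, 39 members passed the filter on low counts and 0 were called by edgeR's quasi-likelihood test, as were 0% of all 14075 genes tested. None of the 39 had an unadjusted p under 0.05, against 7.33% of all genes. DESeq2 called 0 members as well, in a fit that called 171 of 27130 genes. The median log2 fold change (KO over WT) was -0.01 for 26 C/D box members, of which 12 lay above 0, and 0.29 for 13 H/ACA box members, of which 11 did. Without mouse F, whose liver library held the highest level of 20 members, these medians were -0.17 and 0.11. The largest fitted value among the most abundant members was that of Snord15a (0.42, SE 0.27). Snord118 (-0.38, SE 0.21), Snord13 (-0.01, SE 0.36) and Snora73b (0.30, SE 0.20), the members that act in rRNA processing, did not pass, nor did Snord34 (-0.01, SE 0.28), Snord32a (-0.16, SE 0.29) and Snord35a (0.20, SE 0.37).

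In liver the 3 KO libraries lay above the 3 WT libraries for Snora41 and Snora47, 2 of 39 members (5.13%) against 8.03% of all genes, and below them for none, against 5.18%. Snora41 had 1.24, 1.91 and 1.35 CPM in WT and 2.01, 2.29 and 2.55 CPM in KO (log2 fold change 0.58, SE 0.35, adjusted p = 0.793). Snora47 had 0.982, 1.36 and 1.28 CPM in WT and 1.62, 1.86 and 1.54 CPM in KO (0.45, SE 0.37, adjusted p = 0.869).

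In brain, 42 members were tested and 0 were called, beside 0.0640% of 17188 genes. The fitted values lay mostly above 0. The log2 fold change was above 0 for 27 of 28 C/D box members (median 1.10) and 12 of 14 H/ACA box members (median 0.65), beside a median of -0.00 over all genes. An unadjusted p under 0.05 was reached by 6 of 42 members (14.3%), all C/D box, against 11.0% of all genes. These were Snord13 (1.80, SE 0.54, adjusted p = 0.355), Snord110 (1.67, SE 0.51), Snord104 (1.43, SE 0.58), Snord83b (1.53, SE 0.61), Snord49a (1.30, SE 0.53) and Snord61 (1.53, SE 0.65). DESeq2 called Snord110 alone, in a fit that called 269 of 31780 genes. edgeR without the filter on low counts called 12 members, all higher in KO, in a fit that called 1000 of 31780 genes. For no member did the 3 KO libraries lie entirely above or below the 3 WT libraries, which 8.42% and 7.95% of all genes did.

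**Figure D4:**
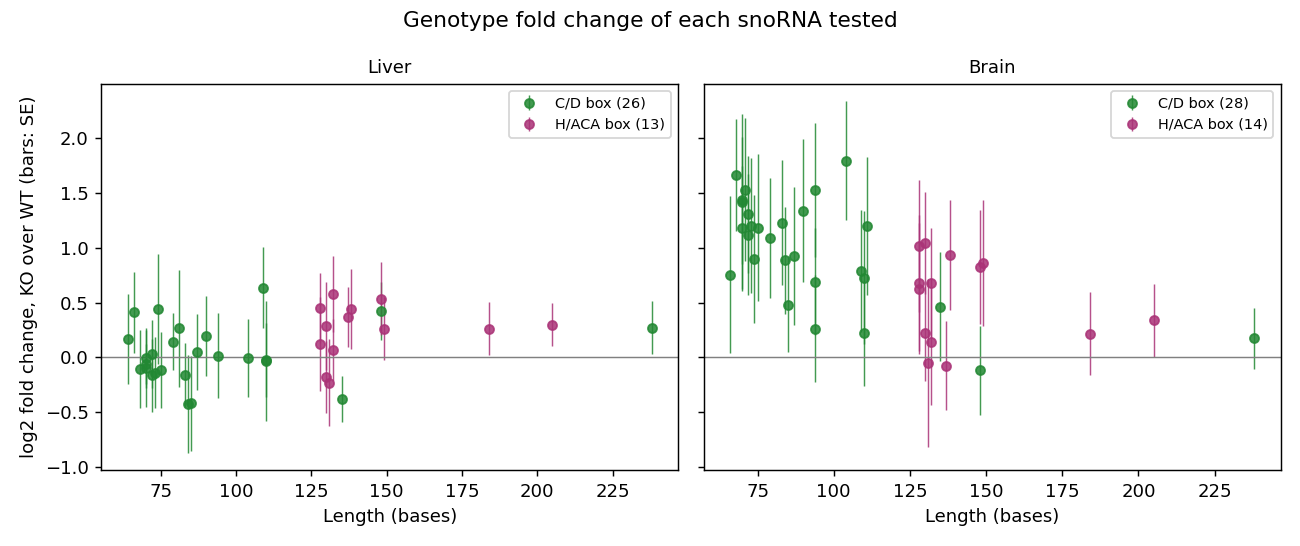
log2 fold change of KO over WT with its SE against the length of each member tested, in liver (26 C/D and 13 H/ACA box) and in brain (28 and 14). The liver values lie on both sides of 0, and the brain values of all 20 members under 100 bases lie above 0 with a median of 1.18.

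The medians in brain depended on single libraries. The brain library of KO mouse A held the highest level of 41 of the 45 members, and that of WT mouse B the highest level of the other 4. The lowest level was in WT mouse E for 28 members, in KO mouse C for 12 and in WT mouse D for 5. For Snord13 the values were 0.657, 0.438 and 0.317 CPM in WT brain (mice B, D and E) and 2.17, 0.624 and 2.07 CPM in KO brain (mice A, C and F), so that mouse C fell within the WT range. For Snord110 they were 1.72, 0.876 and 1.11 CPM in WT and 6.76, 1.59 and 3.37 CPM in KO. Without mouse A the median log2 fold change fell from 1.10 to 0.39 in the C/D box class and from 0.65 to 0.05 in the H/ACA box class. The 2 medians were 0.96 and 0.39 without mouse D, 0.92 and 0.34 without mouse E, 1.57 and 1.02 without mouse B and 1.55 and 0.94 without mouse C. Without mouse A, Snord13 had a value of 1.54 (SE 0.61) and Snord110 one of 1.02 (SE 0.45), and the other 4 members named above had values of 0.55 to 0.69.

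In brain, but not in liver, the median fitted value was higher for members under 100 bases than for the longer ones, a difference that was not tested. In liver the median was -0.01 for members under 100 bases and 0.27 for the longer ones. The 20 tested members under 100 bases, all of the C/D box class, had a median log2 fold change in brain of 1.18, the 8 C/D box members of 100 bases or more one of 0.59, and the 14 H/ACA box members, all longer than 100 bases, one of 0.65. Class and length are thus largely bound together. The ratio of the summed CPM of members under 100 bases to that of the longer ones was 0.375 in the brain library of KO mouse A and 0.133 to 0.252 in the other 5 brain libraries, and 0.258 to 0.452 in liver. That library also had the highest share of counts on the mitochondrial rRNA genes (31.6%, against 21.4 and 22.1% in the other KO and 7.63 to 17.7% in the WT brain libraries) and the lowest sum of the cerebellum genes (96.6 CPM, against 347 to 1311 CPM). The part of length, mitochondrial rRNA and brain region in the snoRNA levels was not tested.

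The shift of each library was also taken for other lists. The shift of a library is the median, over the members of a list, of log2(CPM + 0.5) minus the mean of the tissue's 6 libraries. Only genes with 60 or more counts summed over the libraries of the tissue entered it. In brain it was 1.26 for the C/D box and 0.93 for the H/ACA box members in KO mouse A, -0.57 for both in KO mouse C, and 0.42 and 0.17 in KO mouse F. In WT brain it was 0.15 and 0.46 in mouse B, -0.40 and -0.36 in mouse D, and -0.73 for both in mouse E. A list of 7 other small RNAs (Rn7sk, Rpph1 and 5 spliceosomal or related Rnu genes) had shifts of 0.85 in KO mouse A, -0.29 in KO mouse C and -0.79 in WT mouse E. Their summed level, most of it Rn7sk, was 12395 CPM in KO mouse A, within the 9128 to 14816 CPM of the other brain libraries. In KO mouse A the 6 Scarna genes had a shift of 0.31 and the miRNA genes one of 0.18. The host genes stayed between -0.09 and 0.12 in all 6 brain libraries.

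**Figure D5:**
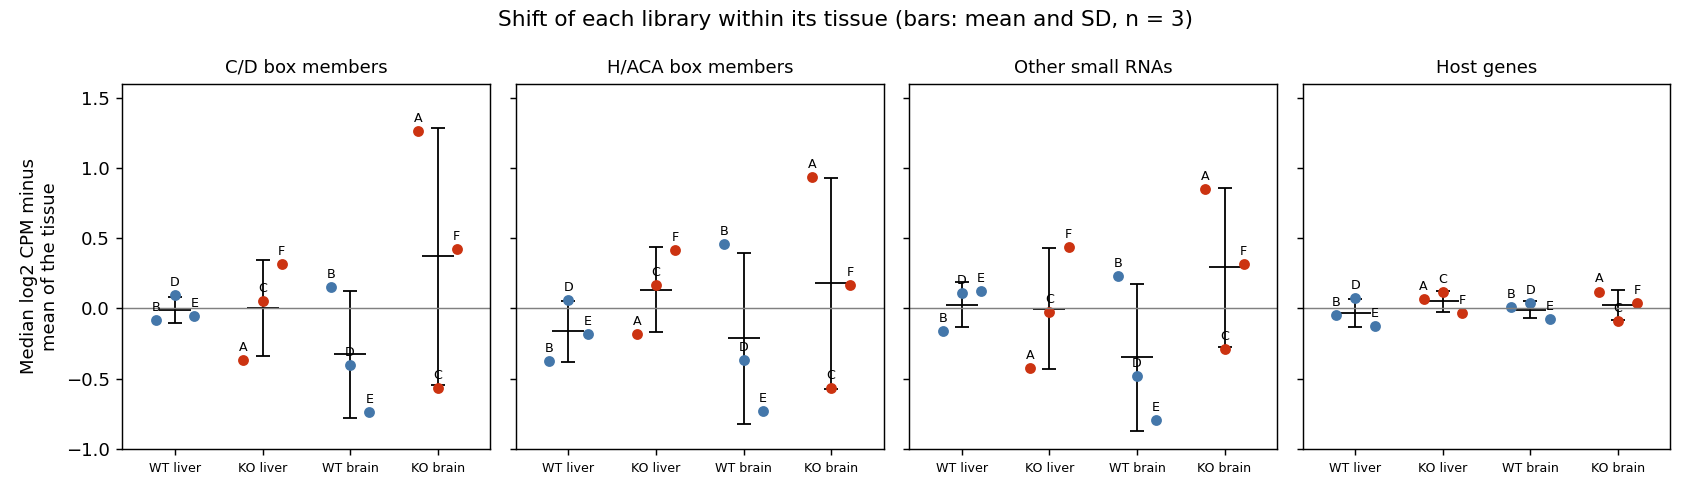
Shift of each library within its tissue, in log2 units, for C/D box members, H/ACA box members, other small RNAs and the host genes (points, lettered by mouse; blue WT, red KO), with the mean and SD of 3 mice. Only genes with 60 or more counts in the tissue are included. The brain library of KO mouse A is highest in the first 3 panels (1.26, 0.93 and 0.85), whereas host genes stay near 0.

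The genotype effect was also compared between the tissues, by subtracting the log2 fold change in brain from that in liver. Of the 45 members 0 were called, as were 0% of 18944 genes. DESeq2 called 0 members too, in a fit that called 369 of 34441 genes. Among the 42 members counted in both tissues, 37 had a fitted difference below 0, with a median of -1.11 over 29 members of the C/D box class and -0.25 over 13 of the H/ACA box class, beside 46.9% of all genes below 0 and a median of 0.04. Without mouse A, 20 of the 42 lay below 0 and the medians were -0.23 and 0.47. Without mouse E, 29 lay below 0 and the medians were -0.87 and 0.03. Leaving out each of the other mice gave 33 to 40 below 0, medians of -1.63 to -0.90 in the C/D box class and of -0.84 to -0.04 in the H/ACA box class. With library totals the H/ACA box median was 0.06. An unadjusted p under 0.05 was reached by 4 of the 42, all of the C/D box class, and by 2004 of the 18944 genes. Snord116l12, Snord116l14 and Snora35 had no liver count and so no difference to test.

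The proteins that form the snoRNA particles were followed as lists. Of the C/D box core genes (Fbl, Nop56, Nop58 and Snu13) and the H/ACA box core genes (Dkc1, Gar1, Nhp2 and Nop10), 0 of 8 were called between the genotypes in either tissue. Of all genes, 0% were called in liver and 0.0640% in brain. The medians of the log2 fold change in brain were 0.19 and 0.16, and in liver -0.07 and 0.06. Nop58, which holds Snord11 and Snord70 in its introns, lay higher in each KO than in each WT brain library (29.4 ± 4.76 CPM in WT and 38.8 ± 4.30 CPM in KO, SD, n = 3, log2 fold change 0.41, SE 0.16, adjusted p = 0.416), while in liver its value was -0.37 (SE 0.18) and the libraries overlapped. Fbl lay lower in each KO than in each WT liver library, by a narrow margin (lowest WT 16.82 CPM, highest KO 16.79 CPM, log2 fold change -0.10, SE 0.13), as 5.18% of all genes did. Dkc1, the pseudouridine synthase, also lay higher in each KO brain library (22.2 ± 2.95 and 27.4 ± 1.93 CPM, 0.31, SE 0.15), beside the 8.42% of all genes with that order. Of 10 assembly factors 0 were called in either tissue as well. In liver 2 lay higher in each KO than in each WT library, against 8.03% of all genes, and 0 lower, against 5.18%. In liver 1 of the 10 had an unadjusted p under 0.05, against 7.33% of all genes. Between the tissues, Fbl, the methyltransferase of the C/D box particle, was higher in liver (log2 fold change 1.15, SE 0.12), and Nop56 (-0.80, SE 0.11), Nop58 (-0.65, SE 0.13) and Snu13 (-0.99, SE 0.14) were higher in brain. Of the H/ACA box core, Nop10 was called higher in liver (1.40, SE 0.19) and Dkc1 higher in brain (-0.26, SE 0.13). The call of Dkc1 came without an unadjusted p under 0.05. Gar1 and Nhp2 were not called, beside 84.9% of all genes called in either direction.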

How the data were processed

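RNA was sequenced from liver and brain of 6 mice as stranded total RNA, 100 bp single-end. The authors used Trimmomatic for trimming, STAR 2.7.3a for alignment to mm10, and featureCounts for strand-specific counting over exons. The deposited values are raw counts of reads per gene. No option for reads shared by 2 genes or mapping to several places is given in the sources used here. Groups follow the labels (genotype, tissue, mouse), and each replicate is a separate mouse.

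Counts were tested with edgeR 4.0.16 in R 4.3.3 (TMM, filterByExpr, robust quasi-likelihood F test, Benjamini-Hochberg over all genes tested, call at adjusted p under 0.1), with each tissue fitted on its own 6 libraries for genotype and all 12 libraries for tissue and for the difference between tissues. DESeq2 1.42.0, DESeq2 size factors, no filter on low counts, 1 fit of all libraries, Y-linked transcripts as a covariate, mouse as a replicate block and leaving out each mouse were alternatives. Library totals without normalisation factors were added after seeing the data. Standard errors (SE) come from the F statistic. Printed CPM use 1 TMM scaling over 12 libraries, whereas genotype fold changes use the scaling within a tissue. The fit was tested on simulated data. A host is the gene of over 300 bases that contains a snoRNA on the same strand. The exact permutation tests used SciPy 1.17.1. Ratios within a host, and their test paired by mouse, were added after seeing the data.

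Liver and brain of a mouse carry the same letter, so the labels pair the tissues by animal. The deviations of a mouse's 2 libraries from their group means correlated by -0.0571 to 0.126 over 12574 genes. The labels do not pair KO with WT mice.

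The members and lists were chosen with earlier results of these data known. Named are the 5 members of smallest p in each direction between the tissues, the 5 highest of each box per kilobase, the members whose genotypes did not overlap, rRNA processing, Rpl13a and imprinted snoRNAs, the particle genes and Mettl5. The other called members, those at an unadjusted p under 0.05 in brain, Snora78, Snord59a and the members of 1 host were named after their values were seen. Intervals and floors of 3 counts cover counting error only, and with 3 mice a group the p-values are those of edgeR's shared estimate of the spread.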

Additional observations from a re-analysis of the deposited data

How the results depend on the processing

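In liver 0 members were called between the genotypes, and in the difference between tissues 0 were called, under each alternative run. Some of these fits did call other genes. The most were 443 of 27130 in liver, without the filter on low counts, and 369 of 34441 in the difference, with DESeq2. In brain, where 0 were called, edgeR without the filter on low counts called 12 (and 1000 of 31780 genes) and DESeq2 called 1 (and 269 of 31780), and the other alternatives called 0. The cause was not tested. Liver against brain, 12 were higher in liver and 8 in brain. With library totals these became 5 and 19, which follows from the TMM factors (0.707 to 0.851 in liver, 1.06 to 1.43 in brain), and 11 of the 19 were not called with TMM. DESeq2 size factors in edgeR moved the median of all genes to -0.32 and gave 11 and 10. When each mouse was left out in turn, 8 to 20 were higher in liver (20 without mouse A) and 7 to 10 in brain. With mouse as a replicate block, 13 were higher in liver and 8 in brain. There 0 members differed between the tissues in the genotype effect, beside 68 of 18944 genes. The paired fit thus changed no call but that of 1 further member, Snord32a. Leaving out each mouse moved the brain median of the C/D box class between 0.39 and 1.57 and of the H/ACA box class between 0.05 and 1.02. In liver the C/D box median, near 0, moved between -0.17 and 0.17 and the H/ACA box median between 0.11 and 0.44.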

Other observations

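Small Cajal body RNAs, which guide the modification of spliceosomal RNAs with the same 2 kinds of particle, were counted beside the snoRNAs. Of 6 Scarna genes, 4 were called higher in brain than in liver and 1 higher in liver, with a median log2 fold change (liver over brain) of -0.80, beside 47.0% of all genes called higher in brain and 37.9% higher in liver. The call in liver came without an unadjusted p under 0.05. Their summed level was 52.7 to 98.1 CPM in liver and 96.5 to 168 CPM in brain. Between the genotypes 0 were called in either tissue, with medians of 0.39 over 4 tested in liver and 0.32 over 6 tested in brain. Of 7 other small RNAs, 4 were called higher in brain, 3 of these with an unadjusted p under 0.05, and 1 higher in liver. Rn7sk, the RNA that holds back the elongation factor P-TEFb, made up most of their summed level of 2780 to 5219 CPM in liver and 9128 to 14816 CPM in brain.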
